A study of Homo sapiens with 6 samples.

Results

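Arachidonic acid is held in membrane phospholipids until a phospholipase A2 frees it. Cyclooxygenases turn it into prostaglandin H2, from which terminal synthases make thromboxane A2, prostaglandin E2 and other prostanoids, whereas lipoxygenases turn it into hydroxy acids and leukotrienes. In megakaryocytes and platelets the route best known is that through PTGS1 (cyclooxygenase 1) and TBXAS1 (thromboxane synthase), which is blocked by aspirin at its cyclooxygenase step and whose product makes platelets aggregate. The 10 genes described here encode enzymes of these routes and were chosen by symbol: PLA2G4A, PTGS1, PTGS2, TBXAS1, PTGES2, PTGES3, ALOX12, ALOX5, ALOX5AP and LTC4S. All 10 were found among the 58735 gene rows of the count table.

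The cells were Meg-01, an established human megakaryoblastic leukaemia line, either left untreated (control, 3 libraries) or exposed for 48 h to 500 µM sodium propionate (C3, 3 libraries), a short-chain fatty acid that gut microbes release. No other agent is named for either group, and the labels give no culture time for the control libraries. The design asks which transcripts differ after C3 treatment. The libraries of a group are called technical replicates in the study, so the p-values measure only the spread between these libraries, and a single cell line stands for the megakaryocyte.

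Library totals lay between 16159449 and 22821722 counts. Of the 12 megakaryocyte markers examined, 11 had enough counts to be tested, ITGA2B (the integrin of the fibrinogen receptor), GATA1 and FLI1 among them. At an adjusted p-value below 0.05 in edgeR 1 of the 11 was higher (ITGB3, log2 value 0.34, adjusted p = 0.033) and 2 were lower (GP1BA, log2 value -0.49, adjusted p = 2.2e-06, and NFE2, described with TBXAS1). PF4, the gene of platelet factor 4, had 0 counts in every library, which allows up to 3 counts per library. The summed level of this list, in CPM (counts scaled to a fixed TMM-adjusted library size), was 1480 to 1554 in the control libraries and 1382 to 1512 after C3 treatment. The mast cell and basophil list had 4 of 5 genes tested and summed to 118 to 130 CPM in control and 115 to 127 CPM in C3 libraries. In that list TPSAB1, a mast cell tryptase gene, had 2, 4 and 3 counts in control and 14, 11 and 17 in C3 libraries (log2 value 1.99, edgeR adjusted p = 0.0093). The other 3 tested genes were not called, with log2 values of -0.016 for CPA3 and -0.071 for HDC, the most abundant of them. MS4A2 had a log2 value of 0.31 (edgeR adjusted p = 0.33), and its C3 libraries lay above the control libraries without overlap. The monocyte and granulocyte list had 3 of 8 genes tested. Its sum was 48.3 to 50.9 CPM in control libraries and 38.8 to 40.0 CPM after C3 treatment. In the erythroid list 4 of 5 genes, in the lymphoid list 3 of 6 and in the fibroblast and epithelial list 4 of 5 were tested. These lists summed to 42.5 to 48.7, 12.6 to 13.3 and 94.1 to 109 CPM in control libraries, and to 48.3 to 52.5, 13.2 to 18.8 and 78.5 to 92.9 CPM after C3 treatment. In the lymphoid list MS4A1 was at 0 in every library. In the fibroblast and epithelial list COL1A1 had 6, 5 and 2 counts in control and 12, 11 and 34 in C3 libraries (log2 value 1.89, edgeR adjusted p = 0.0094). TPSAB1 and COL1A1 passed the filter on low counts only through the C3 libraries, where they were higher, so nothing is read from their calls. KRT18 fell from a mean of 1712 to 1357 normalized counts (log2 value -0.34, edgeR adjusted p = 0.0015), and none of the tested erythroid and lymphoid genes was called. The part of these differences in the results below was not tested.

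C3 treatment moved 3 of the 10 enzyme genes past an adjusted p-value of 0.05 in edgeR's quasi-likelihood test. TBXAS1 fell to 0.78 of its control level and PLA2G4A rose 1.24-fold. ALOX5 was 2.45-fold higher after C3 treatment, from a very low level. It passed the filter on low counts only through the C3 libraries, so nothing is read from its call. At this threshold 2 of the 10 were higher and 1 lower, against 19.8% of all 15078 tested genes called in either direction (11.0% higher and 8.77% lower). With so few members, 3 of 10, ALOX5 included, lies near this background. None of the 10 passed the stricter gates of the study, an adjusted p-value below 0.01 together with a fold change above 1.3, which 6.52% of all tested genes passed (5.05% higher and 1.47% lower). DESeq2 and limma-voom also called 0 of the 10 by these gates. At 0.05 alone, DESeq2 did not call PLA2G4A or ALOX5 (adjusted p-values of 0.086 and 0.059). In edgeR 3 of the 10 (2 higher, ALOX5 among them, and 1 lower) had an unadjusted p-value below 0.05. Of all tested genes 32.1% did (16.8% higher and 15.3% lower). The median log2 fold change was -0.055 over the 10 genes and 0.0021 over all tested genes. The normalized counts of the groups did not overlap for 3 of the 10 genes, ALOX5 again included, against 34.4% of all tested genes. In RNA of a whole culture, fewer cells expressing a gene and less RNA per cell cannot be told apart.

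**Figure D1:**
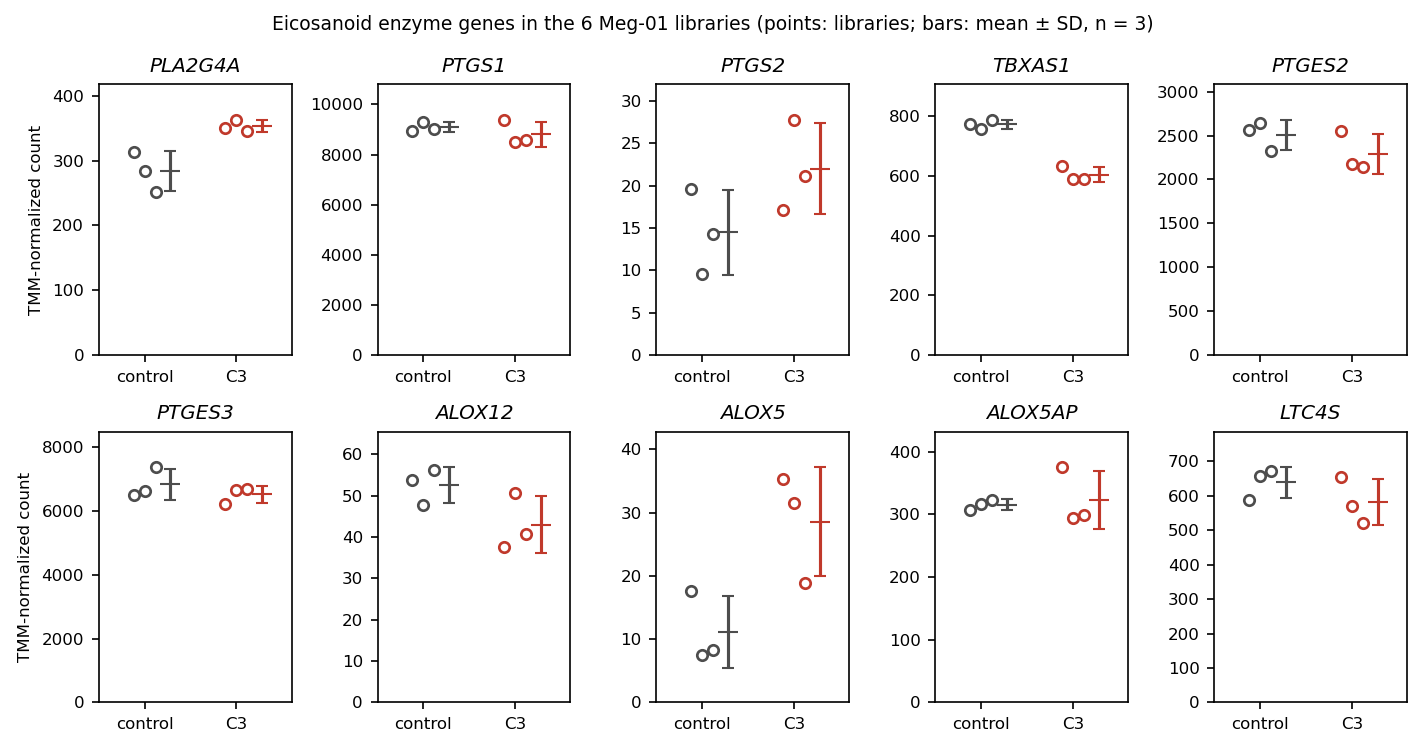
TMM-normalized count (vertical axes, each from 0) of the 10 enzyme genes in each control and C3 library, with the mean and SD of the 3 libraries beside the points. The C3 points lie below all control points for TBXAS1 and above them for PLA2G4A and ALOX5, and the groups overlap in the other 7 genes.

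All 10 genes passed the filter of at least 10 counts in at least 3 libraries. Members with fewer than 10 counts in a library were PTGS2, with 9 counts in control replicate 2, and ALOX5, with 7 counts in each of control replicates 2 and 3. ALOX5 reached 10 counts in 1 control library and in all 3 C3 libraries, so it entered the test only through the group in which it was higher. A normalized count is the deposited count rescaled to the average TMM-adjusted library size of the 6 libraries.

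The sequences upstream of the transcription start are shown for both genes of the cyclooxygenase step and for TBXAS1 and PLA2G4A, the called genes with well over 100 counts per library. Each run is the 250 bases before a RefSeq start (GRCh38.p14), with matches to 5 short motifs in capitals, each searched on both strands. The letters TGAGTCA are one form of the core that the factors NF-E2 and AP-1 bind. Forms of it that differ by a letter were not searched. Factors of the GATA family bind AGATAA, and those of the ETS family bind CCGGAA. The box rich in G and C was searched as GGGCGG, and the TATA box was searched as TATAAA. None of these motifs contains another. The TBXAS1 and PTGS2 starts lie inside the genes as GENCODE annotates them, whose longest forms begin further upstream, so that these windows lie within the annotated genes. PTGS1 has another RefSeq start further downstream, whose window is not printed.
TBXAS1, chr7:139829014-139829263, forward strand: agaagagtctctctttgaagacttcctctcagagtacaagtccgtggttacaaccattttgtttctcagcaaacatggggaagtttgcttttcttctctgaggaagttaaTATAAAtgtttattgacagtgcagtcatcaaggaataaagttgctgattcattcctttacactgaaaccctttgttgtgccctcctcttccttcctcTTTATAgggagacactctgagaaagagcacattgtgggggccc
PLA2G4A, chr1:186828699-186828948, forward strand: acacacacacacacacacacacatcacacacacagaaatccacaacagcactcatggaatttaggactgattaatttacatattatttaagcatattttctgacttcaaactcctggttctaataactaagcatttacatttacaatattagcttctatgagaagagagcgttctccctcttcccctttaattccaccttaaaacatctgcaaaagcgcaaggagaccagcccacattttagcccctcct
PTGS1, chr9:122370283-122370532, forward strand: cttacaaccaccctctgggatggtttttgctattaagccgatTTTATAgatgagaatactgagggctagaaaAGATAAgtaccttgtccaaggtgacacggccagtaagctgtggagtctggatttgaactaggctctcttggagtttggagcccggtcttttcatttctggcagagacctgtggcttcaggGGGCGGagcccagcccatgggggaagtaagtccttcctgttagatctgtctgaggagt
PTGS2, chr1:186680424-186680673, reverse strand: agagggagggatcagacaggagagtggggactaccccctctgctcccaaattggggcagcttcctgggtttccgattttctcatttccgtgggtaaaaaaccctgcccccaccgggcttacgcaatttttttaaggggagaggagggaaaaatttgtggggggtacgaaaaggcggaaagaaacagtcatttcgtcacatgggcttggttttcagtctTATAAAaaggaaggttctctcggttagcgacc
In the TBXAS1 window TATAAA was matched 140 bases before the start and its reverse complement 43 bases before it. In the PTGS2 window TATAAA lay 32 bases before the start. The PTGS1 window held a GATA match at 178 bases, a GC box at 58 bases and the reverse complement of TATAAA at 208 bases before the start. The PLA2G4A window held none of the 5 motifs and was the poorest of these 4 in G and C (38.8%, against 42% for TBXAS1, 49.6% for PTGS1 and 50.4% for PTGS2). Of 35116 RefSeq windows of this length, 4.2% held TGAGTCA, 9.17% the GATA motif, 14.5% the ETS motif, 42.6% the GC box and 10.7% the TATA box on either strand. Windows were found for 9 of the 10 genes, ALOX5 being the exception, and none of the 12 windows held TGAGTCA. A match is a run of letters and was not tested as a binding site, and its absence says only that these letters are not in the window.

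PLA2G4A (ENSG00000116711, chr1:186828949-186988981, forward strand) encodes cytosolic phospholipase A2, which frees arachidonic acid from membranes when calcium rises. Its normalized counts were 313, 284 and 252 in the control libraries and 351, 363 and 346 after C3 treatment. Each C3 library lay above every control library, and the control libraries spread more (SD 30.8) than the C3 libraries (SD 8.71, n = 3 each). The mean rose from 283 to 353, which edgeR estimated as 0.31 on the log2 scale (SE 0.099, adjusted p = 0.026). The 95% interval of the fold change ran from 1.08 to 1.43, and the exact two-sided permutation test gave 0.1, below which a design of 3 against 3 libraries cannot go. The call of PLA2G4A was lost without control replicate 2, control replicate 3, C3 replicate 2 or C3 replicate 3. The adjusted p-values of edgeR were then 0.082, 0.11, 0.080 and 0.068, with log2 fold changes of 0.31, 0.24, 0.30 and 0.33. DESeq2 gave a log2 value of 0.31 with an adjusted p-value of 0.086.

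PTGS1 (ENSG00000095303, chr9:122370530-122395703, forward strand), the constitutive cyclooxygenase of platelets, had the highest normalized count of the 10 genes. It stood at 8930, 9305 and 9022 in control libraries and at 9386, 8493 and 8563 after C3 treatment. C3 replicate 1 was the highest and the other C3 libraries were the lowest of the 6. The means were 9086 ± 195 and 8814 ± 497 (SD, n = 3), which differed by -0.044 on the log2 scale (SE 0.063, edgeR adjusted p = 0.68). Its 95% interval for the fold change, 0.89 to 1.06, leaves out changes as large as that of TBXAS1 in either direction. Scaling by library size alone turned the sign of this value (0.028).

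PTGS2 (ENSG00000073756, chr1:186671791-186680922, reverse strand) encodes the inducible cyclooxygenase, which many cells switch on during inflammation. Its normalized counts were 19.6, 9.54 and 14.3 in control libraries and 17.1, 27.8 and 21.2 after C3 treatment. The groups overlapped, since C3 replicate 1 lay below control replicate 1. The difference, 0.60 on the log2 scale with an SE of 0.36, had an adjusted p-value of 0.27 in edgeR. It was 0.91 without control replicate 1 and 0.37 without control replicate 2. At 9 to 29 counts per library the 95% interval of the fold change reached from 0.90 to 2.54, so that it holds both no change and a 2.54-fold one. Of the exon bases of PTGS2, 3.99% are shared with PACERR on the other strand. Per base of exon, PTGS1 had 432 to 924 times the counts of PTGS2 in control libraries and 290 to 521 times after C3 treatment. PTGS2 and PLA2G4A are neighbours on chromosome 1, with 148 kb between them, and they lie on opposite strands.

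TBXAS1 (ENSG00000059377, chr7:139777051-140020325, forward strand) encodes thromboxane synthase, which turns prostaglandin H2 into thromboxane A2. Its normalized counts were 776, 757 and 787 in control libraries and 634, 590 and 590 after C3 treatment. The lowest control library lay well above the highest C3 library. The mean fell from 773 ± 15.0 to 604 ± 25.6 (SD, n = 3), or by -0.36 on the log2 scale (SE 0.073), and edgeR gave an adjusted p-value of 0.00099. TBXAS1 ranked 662 of the 15078 tested genes by p-value, and the exact two-sided permutation test gave its smallest possible value of 0.1. The 95% interval of the fold change was 0.70 to 0.87. The estimate of 0.78 lay just inside the 1.3-fold gate, and the lower end of the interval lay past it. The adjusted p-value was below 0.05 in all 15 alternatives, from 8.7e-05 to 0.012. None of its exon bases is shared with another annotated gene.

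NFE2, a transcription factor gene known for its role in platelet formation and in the control of thromboxane synthase, was looked at after its values were seen. Its normalized counts were 3278, 3280 and 3045 in control libraries and 2672, 2418 and 2308 after C3 treatment. It fell (log2 value -0.38, SE 0.066, edgeR adjusted p = 0.00019), and its part in the change of TBXAS1 was not tested.

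Within each library, the log2 ratio of TBXAS1 to PTGS1 counts needs no scaling between libraries. It was -3.52, -3.62 and -3.52 in control libraries and -3.89, -3.85 and -3.86 after C3 treatment. The groups did not overlap, and the difference of the means was -0.31. The exact two-sided permutation test gave 0.1, or 0.15 after adjustment over the 3 ratios examined, and the design cannot go below 0.1 before adjustment. Every C3 library held less TBXAS1 per PTGS1 than every control library.

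PTGES2 (ENSG00000148334, chr9:128120693-128128462, reverse strand) and PTGES3 (ENSG00000110958, chr12:56663341-56688408, reverse strand) encode prostaglandin E synthases. PTGES3 is also known as p23, a co-chaperone of HSP90. PTGES2 stood at 2562, 2647 and 2320 normalized counts in control libraries and at 2552, 2179 and 2138 after C3 treatment. C3 replicate 1 lay among the control libraries, whereas the other C3 libraries lay below them. On the log2 scale the groups differed by -0.13 (SE 0.071, edgeR adjusted p = 0.20). This value was -0.22 without C3 replicate 1 and -0.17 after a correction for GC content, with edgeR adjusted p-values of 0.012 and 0.017. With the GC correction and a replicate block it was -0.17 (adjusted p = 0.030). It was smaller without C3 replicate 3 (-0.084), without control replicate 2 (-0.094) and with library size alone (-0.064), with edgeR adjusted p-values of 0.59, 0.53 and 0.57. PTGES3 had 6496, 6629 and 7382 normalized counts in control libraries and 6210, 6663 and 6702 after C3 treatment. The groups overlapped, and their log2 difference of -0.066 (SE 0.065, edgeR adjusted p = 0.52) turned to 0.0091 with library size alone. The annotation lists 5 pseudogenes of PTGES3, to which part of its reads could have been assigned. The log2 ratio of PTGES2 to PTGES3 differed by -0.069 between groups (exact permutation p = 1, also after adjustment).

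ALOX12 (ENSG00000108839, chr17:6996049-7010754, forward strand) encodes the platelet 12-lipoxygenase. ALOX12 stood at 53.9, 47.7 and 56.1 normalized counts in control libraries and 37.6, 50.7 and 40.8 after C3 treatment. C3 replicate 2 lay among the control libraries, and the other C3 libraries lay below them. The log2 difference of -0.28 had an SE of 0.22, and edgeR gave an adjusted p-value of 0.41. The annotation also lists 2 pseudogenes of ALOX12, to which reads could have been assigned. On the other strand, ALOX12-AS1 and a further gene share 18.5% of its exon bases, and whether the counting used strand is not given in the sources used here.

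ALOX5 (ENSG00000012779, chr10:45374176-45446119, forward strand) encodes 5-lipoxygenase, the enzyme that starts leukotriene synthesis. ALOX5 had normalized counts of 17.6, 7.42 and 8.36 in control libraries and 35.3, 31.6 and 18.8 after C3 treatment. The groups were separated only by the gap between control replicate 1 (17.6) and C3 replicate 3 (18.8). The means were 11.1 ± 5.64 and 28.6 ± 8.64 (SD, n = 3), which differed by 1.29 on the log2 scale (SE 0.39, edgeR adjusted p = 0.019). Since ALOX5 passed the count filter only through the C3 libraries, where it was higher, nothing is read from this call. The 95% interval of the fold change was wide, from 1.41 to 4.24, and the exact two-sided permutation test gave 0.1. The call was lost without control replicate 2, control replicate 3, C3 replicate 1 or C3 replicate 2, with adjusted p-values of 0.094, 0.069, 0.061 and 0.054 from edgeR and log2 fold changes of 1.06, 1.13, 1.12 and 1.20. DESeq2 gave a log2 value of 1.32 with an adjusted p-value of 0.059.

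The log2 ratio of ALOX12 to ALOX5 ran from 1.58 to 2.66 in control libraries, with the lowest in replicate 1, and from 0.089 to 1.10 after C3 treatment. ALOX12 had more counts than ALOX5 in every library, but the margin was smaller in each C3 library than in any control library. The difference of -1.66 had an exact permutation p-value of 0.1, or 0.15 after adjustment over the 3 ratios. Because ALOX5 passed the count filter only through the C3 libraries, nothing is read from this difference.

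ALOX5AP (ENSG00000132965, chr13:30713478-30764426, forward strand) encodes FLAP, which presents arachidonic acid to 5-lipoxygenase. Its normalized counts were 307, 317 and 324 in control libraries and 376, 294 and 299 after C3 treatment. C3 replicate 1 was the highest and the other C3 libraries were the lowest, as for PTGS1. The log2 difference was 0.025 (SE 0.10, edgeR adjusted p = 0.90), and without C3 replicate 1 it was -0.087. LTC4S (ENSG00000213316, chr5:179793980-179796647, forward strand) encodes leukotriene C4 synthase. It had 589, 659 and 671 normalized counts in control libraries and 656, 569 and 522 after C3 treatment. The groups overlapped, and they differed by -0.14 on the log2 scale (SE 0.086, edgeR adjusted p = 0.28). Its longest transcript has the highest GC content of the 10 genes, 71.4%. The correction for GC content gave LTC4S a log2 difference of -0.26 (edgeR adjusted p = 0.022, or 0.034 with a replicate block), and leaving out C3 replicate 1 gave -0.23 (adjusted p = 0.048). It was -0.060 without C3 replicate 3 and -0.066 with library size alone, with edgeR adjusted p-values of 0.76 and 0.64. Beside these leukotriene genes, LYZ of the monocyte and granulocyte list fell from a mean of 613 to 430 normalized counts (adjusted p = 4.7e-05, edgeR), and its part in these results was not tested. The other tested genes of that list were not called, CSF1R with a log2 value of 0.26 (adjusted p = 0.28, edgeR) and MPO with -0.22 (adjusted p = 0.23, edgeR), and the remaining 5 had too few counts.

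**Figure D2:**
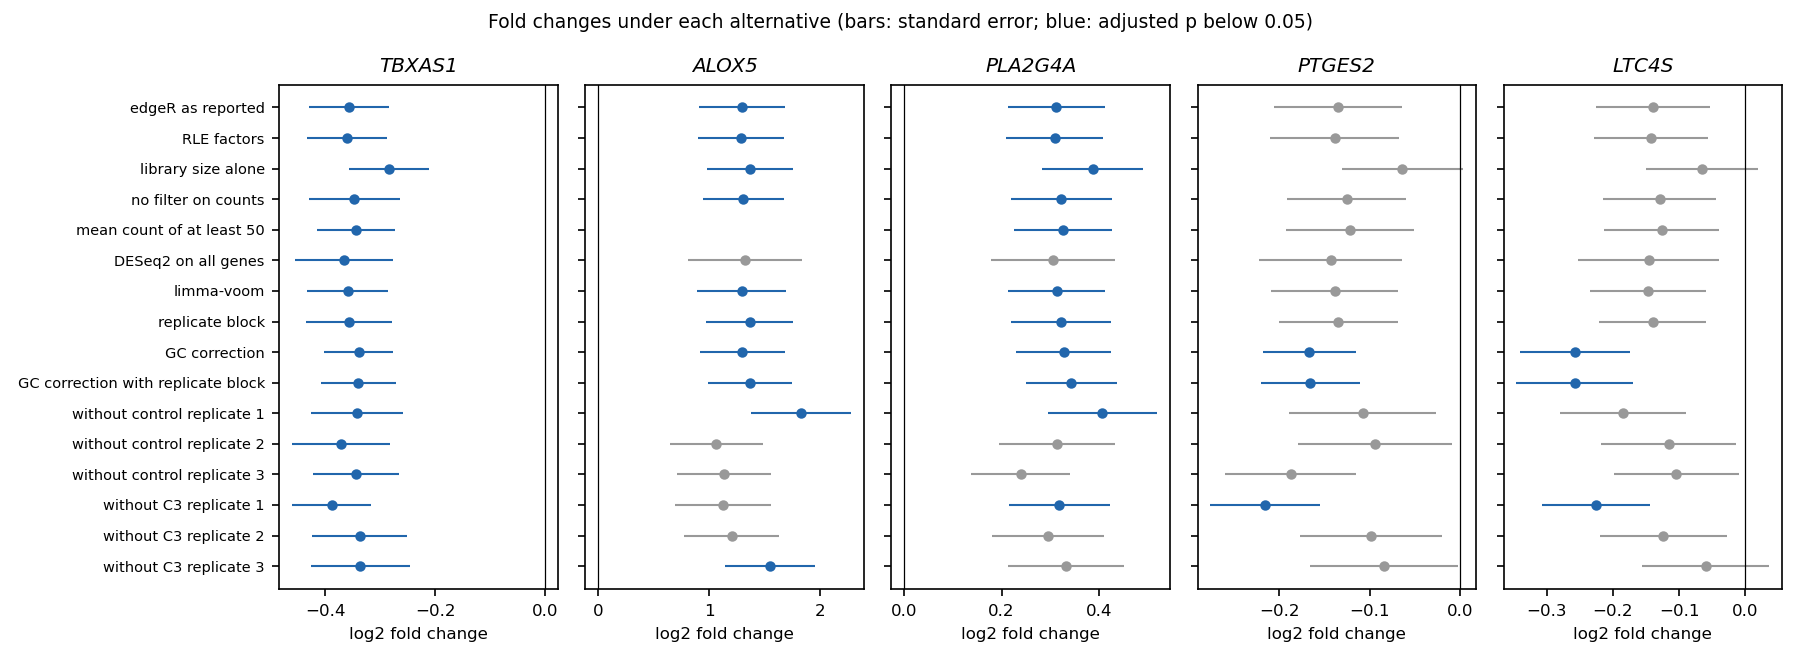
Log2 fold change of C3 over control (horizontal axes, different scales) with its standard error for 5 enzyme genes under edgeR as reported and under each alternative. TBXAS1 is blue (adjusted p below 0.05) in every row, ALOX5 and PLA2G4A are grey in 5 rows each, and PTGES2 and LTC4S are blue in 3 rows each.

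Levels of different genes were compared as CPM per kilobase of merged exons. In control cells PTGES3 stood highest at 108 ± 7.55, followed by PTGS1 at 84.4 ± 1.81, LTC4S at 28.8 (range 26.5 to 30.2) and PTGES2 at 22.2 (range 20.5 to 23.4), where ± gives the SD and n = 3. ALOX5AP had 10.1 ± 0.27, TBXAS1 6.72 ± 0.13 and PLA2G4A 5.28 ± 0.57, and ALOX12 was near 1 (1.07 ± 0.088). The lowest were ALOX5 at 0.16 ± 0.081 and PTGS2 at 0.14 ± 0.049, the only neighbours in this order whose libraries overlapped. PTGES3 and PTGS1 lay above 97.7% and 96.9% of all tested genes on this scale in control cells, and ALOX5 and PTGS2 above 5.87% and 5.01%. After C3 treatment the order was the same except that PLA2G4A (6.59 ± 0.16) stood above TBXAS1 (5.26 ± 0.22), again without overlap of their libraries. By mean normalized count TBXAS1 stayed above PLA2G4A after C3 treatment (604 against 353). The merged exons of TBXAS1 are longer (6177 against 2879 bases), so their order depends on the length used. Merged exons count bases of all annotated transcripts, so the level of a gene with rarely used exons is understated.

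**Figure D3:**
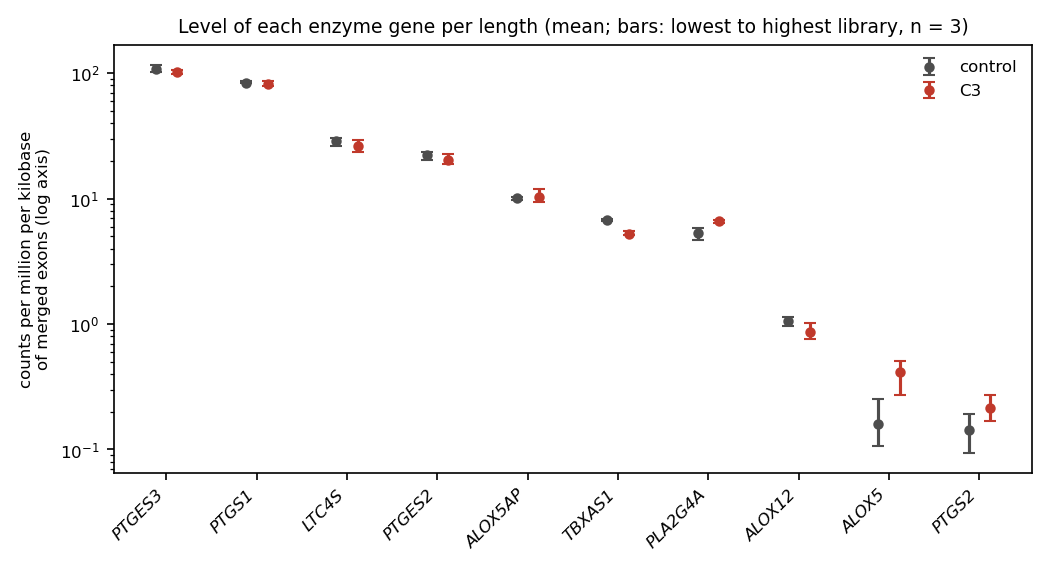
CPM per kilobase of merged exons (log axis) for the 10 enzyme genes, ordered by their level in control cells. Points are means and bars run from the lowest to the highest of 3 libraries. The levels span from 108 for PTGES3 to 0.14 for PTGS2 in control cells. On this scale TBXAS1 and PLA2G4A change places after C3 treatment.

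The libraries' pattern most like that of TBXAS1, the member with the smallest p-value, was sought among the 11850 genes whose normalized counts averaged 50 or more. By Pearson's r of log2 CPM over the 6 libraries, APBB1IP (0.998), DDX59 (0.997) and SNX11 (0.997) came closest, with log2 fold changes of -0.17, -0.26 and -0.33. An r above 0.9 was reached by 1010 genes. All these genes share the same 6 libraries and the same division into groups.

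The other genes of the eicosanoid routes were taken from a list of 56 covering release and re-esterification of arachidonic acid, further synthases, inactivation, receptors and transport. Of these, 36 passed the count filter, and 4 were at 0 in all libraries. In edgeR's test 5 were higher and 3 lower at an adjusted p-value below 0.05, again near the background of 19.8%. By the study's gates 2 were higher (MGLL and GGT1) and 1 lower (PTGDR2), against 6.52% of all tested genes. Their median log2 fold change was -0.031, with 16 positive and 20 negative values.

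Among genes that release or store arachidonic acid, MGLL, the monoacylglycerol lipase that splits 2-arachidonoylglycerol, had 65.6, 42.4 and 77.6 normalized counts in control libraries and 147, 139 and 109 after C3 treatment. Every C3 library lay above the control libraries. MGLL rose 2.12-fold, or by 1.08 on the log2 scale (SE 0.19, edgeR adjusted p = 0.00019). ACSL4, which couples arachidonic acid to coenzyme A, had normalized counts of 2030, 1993 and 2097 in control and of 2132, 2421 and 2611 in C3 libraries. It rose (log2 value 0.23, SE 0.069, edgeR adjusted p = 0.019), but not past the threshold without control replicate 1, control replicate 2 or C3 replicate 3 (0.24, 0.21 and 0.16, with adjusted p-values of 0.052, 0.10 and 0.19). Of the secreted phospholipase genes, PLA2G2A and PLA2G5 were at 0 in every library, whereas PLA2G12A had 218 to 345 counts (log2 value 0.17, adjusted p = 0.27, edgeR).

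In the leukotriene branch beyond the members, LTA4H, the leukotriene A4 hydrolase that makes leukotriene B4, had 1356, 1466 and 1635 normalized counts in control libraries and 1822, 1875 and 1876 after C3 treatment. It rose by 0.32 on the log2 scale (SE 0.068, edgeR adjusted p = 0.0013), and every C3 library lay above the control libraries. On the other strand, 12.5% of its exon bases are shared with another gene. GGT1, a gamma-glutamyltransferase that acts on leukotriene C4, rose from 93.9 ± 10.5 to 150 ± 10.5 (SD, n = 3), or by 0.67 on the log2 scale (edgeR adjusted p = 0.0018), although 56.5% of its exon bases are shared with another gene of the same strand. MGST2, a microsomal glutathione transferase able to make leukotriene C4, stood at 731, 719 and 886 in control libraries and at 636, 614 and 586 after C3 treatment. It fell (log2 value -0.35, SE 0.082, edgeR adjusted p = 0.0036), and no C3 library reached the control range. MGST2 shares 7.94% of its exon bases with a gene on the other strand. Of the 6 tested genes of this branch 2 were higher and 1 lower at an adjusted p-value below 0.05 in edgeR, where 11.0% of all tested genes were higher and 8.77% lower, and with 6 genes nothing is read from this count.

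Among the prostanoid receptors, TBXA2R, the thromboxane receptor gene, stood at 665, 662 and 616 normalized counts in control libraries and at 582, 470 and 520 after C3 treatment. It fell (log2 value -0.31, SE 0.083, edgeR adjusted p = 0.0092), but not past the threshold without control replicate 1 (-0.28, adjusted p = 0.054) or C3 replicate 2 (-0.24, adjusted p = 0.075). PTGDR2, a prostaglandin D2 receptor gene, had 137, 147 and 105 in control and 83.1, 88.0 and 82.3 in C3 libraries. It fell (log2 value -0.63, SE 0.16, edgeR adjusted p = 0.0060), but without control replicate 2 the value was -0.53 (adjusted p = 0.054). PTGER3, the most abundant receptor of the list by count, had a mean of 3252 in control and 3258 in C3 libraries, with a fold change interval of 0.92 to 1.09. CYSLTR2, a cysteinyl leukotriene receptor gene, rose (log2 value 0.29, SE 0.095, edgeR adjusted p = 0.034). Its groups overlapped (415, 462 and 455 against 447, 568 and 598). The call of CYSLTR2 was lost without control replicate 1, 2 or 3, C3 replicate 2 or C3 replicate 3, with adjusted p-values of 0.14, 0.062, 0.057, 0.10 and 0.25 from edgeR and log2 fold changes of 0.25, 0.32, 0.30, 0.25 and 0.20. DESeq2 gave 0.27 with an adjusted p-value of 0.11.

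**Figure D4:**
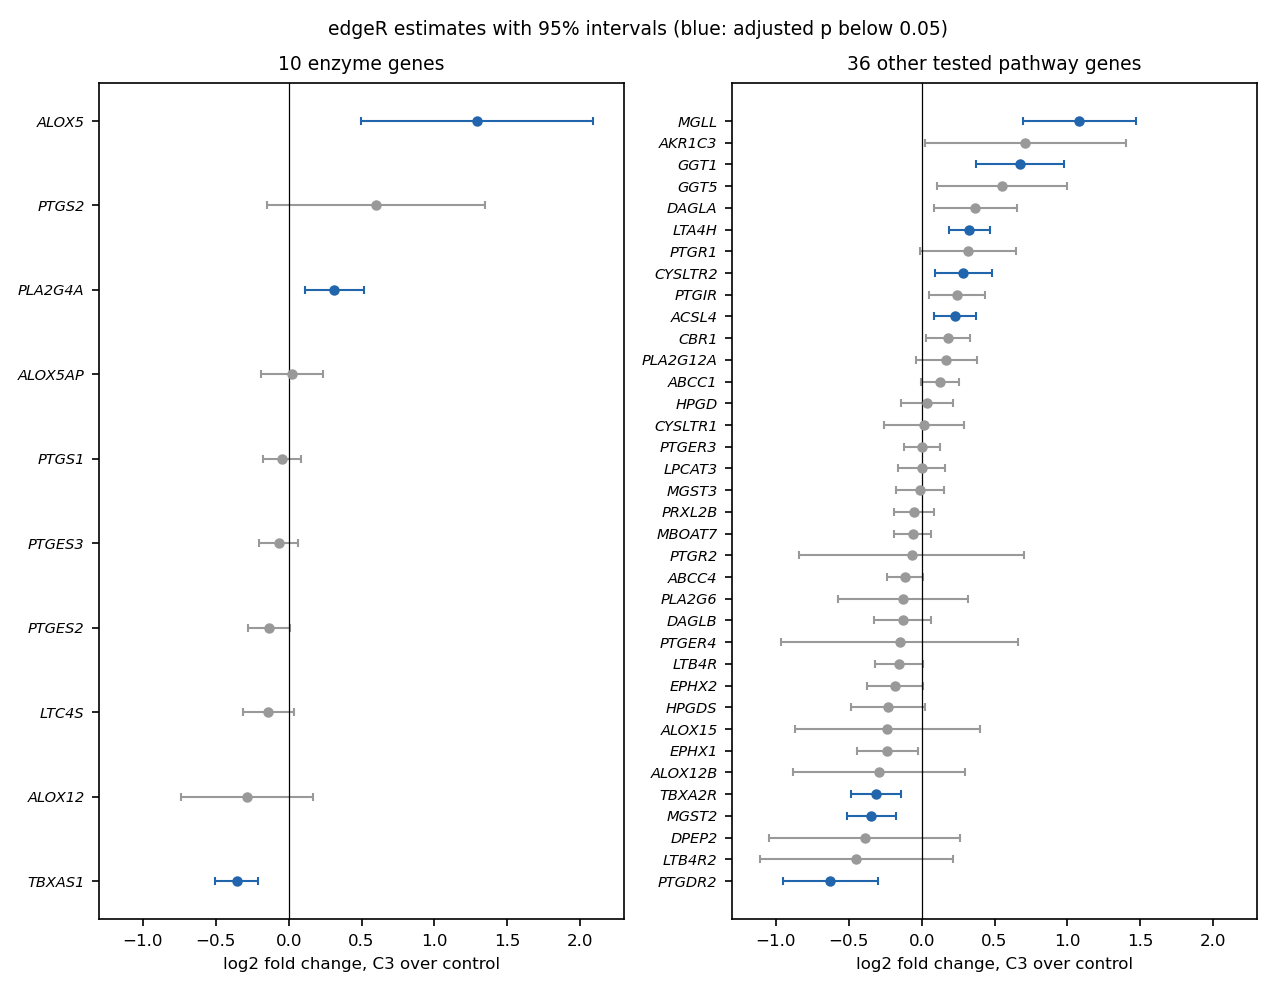
Log2 fold change of C3 over control (horizontal axis) with its 95% interval from edgeR for the 10 enzyme genes (left) and the 36 other tested genes of the pathway (right). Blue points have an adjusted p below 0.05: ALOX5, PLA2G4A and TBXAS1 on the left, and 5 higher and 3 lower genes on the right. Intervals are widest for genes with few counts, such as ALOX5 and PTGS2.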

How the data were processed

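RNA of 3 control and 3 C3 libraries of Meg-01 cells was measured. According to the methods and the submitters' processing notes, the authors used fastp on the reads, STAR 2.6.1d for mapping (GRCh38/hg38) and featureCounts 1.5.0-p3 for counting. The deposited values are raw counts per Ensembl gene without normalization. Which annotation release and strand setting they used is not given in the sources used here. The methods name a shorter incubation beside the one of the C3 labels, which was used here.

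Columns were matched to libraries by name. Symbols, coordinates and exon lengths came from GENCODE release 44 (GRCh38), with symbols for 58207 of 58735 identifiers, and promoter sequences from RefSeq (GRCh38.p14). A gene was tested where 3 or more libraries had 10 or more counts. The quasi-likelihood test of edgeR 4.0.16 in R 4.3.3 was used with TMM factors and Benjamini-Hochberg adjustment over all 15078 genes, without a replicate block. The common dispersion corresponded to a coefficient of variation of 6.21% between libraries. The SE of each log2 fold change was taken from F (the estimate over the root of F), and 95% intervals use its degrees of freedom. Single genes were read at 0.05, and the stricter gates were an adjusted p-value below 0.01 with a fold change above 1.3. Permutation tests were exact and two-sided, and ratios had a pseudocount of 0.5. Intervals and limits from counts of 0 cover counting error only.

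Alternatives were DESeq2 1.42.0, RLE factors, scaling by library size alone, testing without the filter or with a mean count of 50 or more, limma-voom (limma 3.58.1), the replicate block, a loess correction for GC content (span 0.3) with and without the block, and each library left out. The fits were tested on simulated counts with 200 known changes, each larger than those of TBXAS1 and PLA2G4A. That test does not show how well changes as small as theirs are found. The members and gene lists were chosen with earlier results of these data known. The genes named were the members, listed pathway genes past 0.05 or TBXA2R, and the 3 genes most like the member with the smallest p-value. NFE2, LYZ, TPSAB1, CPA3, HDC, MS4A2, COL1A1, KRT18, CSF1R and MPO were named after their values were seen. So were PTGER3, PLA2G2A, PLA2G5, PLA2G12A and the markers given as examples.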

Additional observations from a re-analysis of the deposited data

How the results depend on the processing

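The number of enzyme genes called by the stricter gates was 0 higher and 0 lower. It became 1 higher (ALOX5) without a count filter, with the replicate block and with the GC correction and block together. At an adjusted p-value below 0.05 alone it was 2 higher (ALOX5 and PLA2G4A) and 1 lower (TBXAS1). With each library left out it was 0 to 1 in either direction (ALOX5 higher without control replicate 1, TBXAS1 lower without C3 replicate 1). Under the count filter ALOX5 entered only through the C3 libraries, so nothing is read from its calls. For the other pathway genes, 2 were higher and 1 lower. At an adjusted p-value below 0.05 alone these were 5 and 3, the lower count was 0 with library size alone and with DESeq2, and leave-one-out fits gave 1 to 3 higher and 0 to 1 lower. Of all tested genes, 761 were higher and 222 lower, 1658 and 1323 at 0.05 alone, and with library size alone 1025 were higher and 100 lower. Leaving out each library gave 516 to 766 higher and 129 to 340 lower, the extremes coming without C3 replicate 3 (fewest) and C3 replicate 1 (most). PTGS1 and PTGES3 turned positive with library size alone (0.028 and 0.0091), and ALOX5AP turned negative without C3 replicate 1 (-0.087; with single libraries left out it reached up to 0.087, and 0.097 with library size alone), none of them past the threshold in either fit. For single genes, 236 values under alternatives kept their direction and side of the threshold, 22 lost the call and 6 gained it. The cause of these changes was not tested. With single libraries left out, the differences of the within-library ratios between groups ran from -0.34 to -0.29 for TBXAS1 to PTGS1, -2.01 to -1.40 for ALOX12 to ALOX5 and -0.18 to -0.0022 for PTGES2 to PTGES3. Deviations of libraries with the same replicate number correlated by 0.021, -0.047 and 0.030, and 2 of 6 libraries correlated best with their own number, so the numbers were not taken as pairs. The replicate block changed the call of no member at 0.05 and gave 909 higher and 268 lower genes in all. PTGS2, ALOX12 and ALOX5 gave no value with a mean count of 50 or more, since that filter removed them.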
